A study of Mus musculus with 12 samples.

Results

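The genes described here are 6 mouse genes of NF-κB feedback and inflammatory signalling: Nfkbia, Nfkbiz, Tnfaip3, Tnf, Cxcl2 and Il1b. They were chosen by name with earlier results of these data in view, among them the lists in which each has a peak of N4-acetylcytidine (ac4C), so the presence of a peak is given as a description, with no test. A gene had a peak where the authors' annotation named it as overlapped by one. Of the 6 genes, 5 had a peak in at least 1 of 6 deposited peak lists, and Il1b had none. Over all 21896 protein-coding genes of a RefSeq table, 1783 had a peak in some list, which is 8.14%.

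The samples were peritoneal macrophages, phagocytes of the mouse abdominal cavity, kept in culture with interferon-γ (IFN-γ), a cytokine that activates macrophages, for 0, 24 or 48 h. RNA bound in an ac4C pull-down and total RNA were sequenced, with 2 samples for each of the 6 groups and 12 in all. The labels give no strain, sex or age of the mice and name no genotype or other agent, and the 0 h group carries the IFN-γ label too. No group was kept for 24 or 48 h without IFN-γ, so IFN-γ and time in culture cannot be told apart. Each time has 2 peak lists, called list 1 and list 2 here without any order, because a list names its hour and not its sample, and nothing says that they came from separate animals or cultures, so their spread may be technical.

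NF-κB is a family of transcription factors that IκB inhibitor proteins hold in the cytoplasm. When a receptor such as the TNF receptor or a Toll-like receptor is engaged, IκB kinase marks the inhibitor for degradation, NF-κB enters the nucleus and inflammatory genes are transcribed. Some of these targets restrain the pathway in turn: Nfkbia encodes IκBα and Tnfaip3 the ubiquitin-editing enzyme A20. Nfkbiz encodes the nuclear regulator IκBζ. Tnf, Cxcl2 and Il1b encode secreted signals of activated macrophages. Their mRNAs are short-lived, and AU-rich elements and stem-loops in their 3′ UTRs recruit decay proteins. ac4C is an acetylated cytidine, made in RNA by the acetyltransferase NAT10.

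The κB motif, the binding sequence of NF-κB, was looked for on both strands of RefSeq promoter windows (GRCm38.p6, 250 bases before to 50 after the gene start, matches allowed to overlap), to show the element that ties the genes to the factor. The windows searched were 2 of Tnfaip3 and 1 each of Nfkbia, Tnf, Cxcl2 and Il1b; Nfkbiz was not analysed here. The motif was found in 3 of these 6 windows, and in 8.46% of all 32851 windows. Each site is printed 5′ to 3′ on the strand of the gene with 10 bases on either side, the motif in capitals:

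Nfkbia, chr12:55492657-55492686, minus strand, 29 bases before the start: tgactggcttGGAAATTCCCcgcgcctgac

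Tnfaip3, chr10:19015516-19015545, minus strand, 125 bases before the start: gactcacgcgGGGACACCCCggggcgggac

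Tnfaip3, chr10:19015403-19015432, minus strand, 12 bases before the start: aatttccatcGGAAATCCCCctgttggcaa

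Cxcl2, chr5:90903792-90903821, plus strand, 97 bases before the start: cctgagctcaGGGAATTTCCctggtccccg

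The windows of Tnf and Il1b and 1 window of Tnfaip3 did not hold these letters, which says nothing of the factor. A match describes the sequence and is not a bound site. All coordinates from here on are in GRCm39, the build of the peak lists.

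Peak numbers per list were 1151 and 946 (0 h), 725 and 646 (24 h) and 674 and 611 (48 h). Their depth could be compared because the authors' fold and p at each summit are reproduced by a whole number of pull-down fragments and the coverage of the control, called input here. The input of the 48 h lists reached 57.2% and 44.5% of the deepest input, that of list 1 at 0 h, and that of the 24 h lists 73.7% and 80.8%. The pull-downs were deepest at 24 h, at 100% and 98.0% of the deepest one, while the 0 h lists reached 91.5% and 78.0% and the 48 h lists 78.0% and 68.5%. In the recovered formula the pull-down is scaled to the input before p is computed. Of 11 macrophage markers, Lyz2 and Itgam had peaks, at 0 h only, so most defining markers show no peak, which is no measure of their RNA level. Markers of B cells, T cells, neutrophils, mast cells and eosinophils had no peak in any list, and the mesothelial marker Wt1 had 1 peak, in list 2 at 48 h. Of the 5 B cell markers and the 5 T cell markers, only 4 each were named in the RefSeq table used.

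Peaks of the 6 genes were spread unevenly over the lists. At 0 h, list 1 held a peak of 1 of these genes and list 2 of 3. At 24 h each list held 4, and at 48 h list 1 held 1 and list 2 held 2. Summed over a time, 4 of 12 gene and list pairs had a peak at 0 h, 8 of 12 at 24 h and 3 of 12 at 48 h. The count was highest at 24 h, where both lists lay above all 4 others.

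That order differs from the one over all genes with a peak. The 0 h lists held 43.6% of the 3508 pairs of all 1783 genes, against 28.5% at 24 h and 27.9% at 48 h. For the listed genes the same shares were 26.7%, 53.3% and 20.0% of 15 pairs. No test was made of this difference, since the genes were picked with their lists known. Without list 2 at 0 h, the 0 h count is 1 of 6 pairs.

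At 24 h, Nfkbia, Nfkbiz and Cxcl2 had a peak in both lists, as had 10.5% of the 1783 genes. Nfkbia alone had one in both 0 h lists (all genes: 20.9%), and none of the 6 had one in both 48 h lists (all genes: 10.2%). The Nfkbia peak in list 1 at 0 h is lost when all lists are cut to the length of the shortest. It is also lost when the input of all lists is scaled to that of the shallowest. Nfkbia and Cxcl2 were each found in 4 or more lists, as were 13.2% of the genes. Nfkbiz was the 1 member gained at 24 h, meaning a peak in both 24 h lists and in neither 0 h list, a pattern shared by 2.36% of the genes. By the reverse rule, which needs a peak in both 0 h lists, only Nfkbia could have been called lost. None of the 6 was lost between 0 h and 24 h (all genes: 8.69%) or between 0 h and 48 h (all genes: 7.96%). These shares are given beside the counts as background only.

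**Figure D1:**
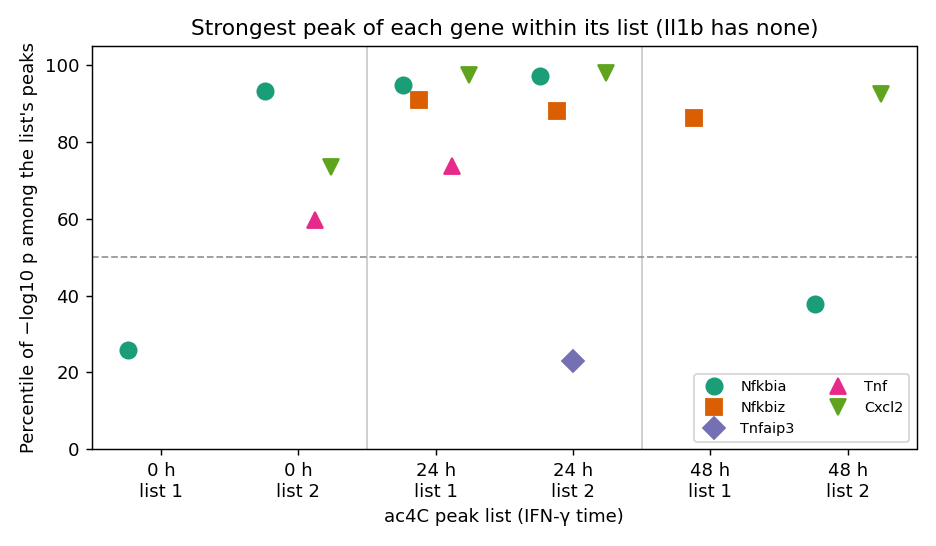
Each point is the strongest peak of a gene in a list, placed by the percentile of its −log10 p among all peaks of that list (vertical axis) for the 6 lists in order of time (horizontal axis); the dashed line marks the 50th percentile. The 24 h lists hold 4 genes each, Nfkbia lies high in 3 lists and low in list 1 at 0 h and list 2 at 48 h, and Il1b has no point.

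Nfkbia (ENSMUSG00000021025, chr12:55536195-55539432, minus strand) encodes IκBα, the inhibitor that NF-κB itself induces and that carries NF-κB back out of the nucleus. Its main region lay in the 3′ UTR and was called in 5 of 6 lists, all but list 1 at 48 h. The merged region was chr12:55536243-55536756, and the 217 bases chr12:55536522-55536739 were common to the 5 lists. The strongest summit fell between 423 and 440 bases from the 3′ end of the gene in every one of them, a range of 17 bases. Over the 1032 regions of all genes found in 2 or more lists, the median range was 37.0 bases. Over the 237 found in 4 or more, it was 61.0 bases. The same range was 32 bases for the Nfkbiz region found in 3 lists, 49 for Tnf in 2 lists and 319 for Cxcl2 in 4 lists. In 3 lists the peak had the same upstream edge, base 55536756, which the authors' annotation placed in the last intron.

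At that summit, the pull-down held 46 fragments in list 1 and 182 in list 2 at 0 h. It held 175 and 181 fragments in the 24 h lists, and 69 in list 2 at 48 h. The exact 95% Poisson intervals were 33.7 to 61.4 and 157 to 210 (0 h), 150 to 203 and 156 to 209 (24 h), and 53.7 to 87.3 (48 h). Scaled to the deepest pull-down, these are 50.3 and 233 fragments at 0 h, 175 and 185 at 24 h, and 101 (78.3 to 127) at 48 h. List 1 at 0 h and list 2 at 48 h lay below the other 3 lists on either scale. The 24 h values lie between those of the 0 h lists, so the groups overlap. In bulk RNA, fewer cells with a transcript and less of it in each cell cannot be told apart.

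The input moved too. It came to 8.00 and 24.0 fragments in the 0 h lists, 11.0 and 12.0 in the 24 h lists and 6.00 in list 2 at 48 h. Scaled for depth, the pull-down exceeded the input 2.51-fold (95% interval 1.17 to 6.16) and 3.55-fold (2.31 to 5.68) at 0 h. The ratio was 4.69 (2.56 to 9.56) and 4.97 (2.78 to 9.80) at 24 h, and 2.98 (1.30 to 8.41) in list 2 at 48 h. All 5 intervals overlap. They cover the counting error of single lists only, and the difference between the times was not tested.

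The authors' −log10 p for the summit reached 4.03 and 22.0 in the 0 h lists, 18.4 and 22.3 in the 24 h lists, and 4.24 in list 2 at 48 h. In their lists these peaks stood at the 25.7th and 93.3rd, the 94.9th and 97.2nd, and the 37.7th percentile. The deposited q of the authors was 0.834 in list 1 at 0 h and 1.00 in list 2 at 48 h, so at a q of 0.05 the gene keeps 3 of its 5 lists.

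Nfkbia had other peaks in the 24 h lists, and each was in a single list. In list 1 a peak in exon 1 (chr12:55539088-55539310) had 37 pull-down fragments over an input coverage of 1.31, with the authors' fold at 5.15 and −log10 p at 6.83. In list 2 a peak at exon 5 (chr12:55537228-55537456) had 82 fragments over 7.00, with a fold of 3.50 and −log10 p of 8.74. The 3′ UTR peak of list 2 at 0 h had a further summit 159 bases from the gene end, with 70 fragments. Only the main 3′ UTR region of the gene recurred between lists.

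Nfkbiz (ENSMUSG00000035356, chr16:55631738-55659262, minus strand) encodes IκBζ, which binds NF-κB in the nucleus and is needed for a later set of inflammatory genes. It had a peak in both 24 h lists and in list 1 at 48 h, and none at 0 h. The region, chr16:55632407-55633007, lay in the 3′ UTR and had 2 summits in each of the 3 lists. The upstream summit was 1096 and 1105 bases from the gene end at 24 h and 1073 at 48 h. The downstream one was 761 and 778 bases from it at 24 h and 771 at 48 h.

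The upstream Nfkbiz summit had 109 and 102 pull-down fragments at 24 h and 103 at 48 h. The downstream summit had 100 and 90 at 24 h and 72 at 48 h. For either summit the counting intervals of the 3 lists overlap, also when scaled to the deepest pull-down (109, 104 and 132 fragments upstream). The authors' fold at the upstream summit was 4.45 and 3.74 at 24 h and 3.90 at 48 h, with −log10 p of 13.0, 10.8 and 10.7. The peaks stood at the 91.0th, 88.1st and 86.2nd percentile of their lists. List 1 at 24 h had a further 3′ UTR peak, chr16:55631826-55632057, with 50 fragments, a fold of 3.29 and a q of 0.243.

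Tnfaip3 (ENSMUSG00000019850, chr10:18876677-18891124, minus strand) encodes A20, which removes activating ubiquitin chains from the signalling complex upstream of IκB kinase. Its peak, chr10:18878004-18878618 in the last exon, was called in list 2 at 24 h only. It had 2 summits, with 56 fragments over an input of 8.00 and 40 over 6.00, and the authors' −log10 p was 3.19 and 2.44. At 614 bases it was the widest peak of the 6 genes and the weakest, at the 22.9th percentile of its list, and the authors' deposited q was 1.00 at both summits. The smallest −log10 p in the lists is 2.30 to 2.33, so the weaker summit lies just inside the authors' threshold. With the input of all lists scaled to that of the shallowest, the peak is no longer called.

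Tnf (ENSMUSG00000024401, chr17:35418357-35420983, minus strand) encodes tumour necrosis factor, whose 3′ UTR is the textbook case of an AU-rich element. Its 3′ UTR peak was called in list 2 at 0 h and in list 1 at 24 h, and in neither 48 h list. The summits lay 246 and 295 bases from the gene end, and 258 bases, chr17:35418492-35418750, were common to both lists. At 0 h the summit had 160 fragments over an input of 39.0, the highest input of any summit of the 6 genes. At 24 h it had 70 over 5.00. Scaled to the deepest pull-down these are 205 (175 to 239) and 70.0 (54.6 to 88.4) fragments, and the 0 h list was higher beyond counting error.

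Relative to the lowest input of its list, the coverage under the Tnf summit was 52.2-fold at 0 h and 8.30-fold at 24 h. The ratio of pull-down to input was 1.92 (1.35 to 2.80) at 0 h and 4.12 (1.69 to 13.1) at 24 h, and the intervals overlap. The authors' −log10 p was 6.70 and 7.09, at the 59.8th and 73.8th percentile. A similar p thus came from high coverage with a low ratio in one list and from low coverage with a higher ratio in the other.

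Cxcl2 (ENSMUSG00000058427, chr5:91051732-91053797, plus strand) encodes a chemokine that draws neutrophils. Its region, chr5:91053145-91053741 in the last exon, was called in list 2 at 0 h, in both 24 h lists and in list 2 at 48 h. The upstream summit lay 472 bases from the gene end at 0 h, 508 and 507 at 24 h, and 465 at 48 h. A downstream summit 189, 168 and 124 bases from the end was called in list 2 at 0 h, list 2 at 24 h and list 2 at 48 h. List 1 at 24 h had the upstream summit alone. In list 2 at 0 h the downstream summit was the stronger of the pair, with a −log10 p of 9.12. In the later lists it was the weaker, with 5.46 at 24 h and 3.76 at 48 h. The authors' deposited q of the downstream summit was 3.7e-05 in list 2 at 0 h and 0.108 in list 2 at 24 h. It was higher still in list 2 at 48 h, so neither later downstream summit reached a q of 0.05.

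The upstream Cxcl2 summit had 106 fragments over an input of 21.0 at 0 h, with a fold of 2.30 and −log10 p of 7.27. At 24 h it had 280 over 22.4 and 304 over 30.0, with folds of 3.56 and 3.27 and −log10 p of 22.1 and 23.7. At 48 h it had 144 over 8.00, with a fold of 4.26 and −log10 p of 13.8. The 24 h peaks stood at the 97.4th and 98.0th percentile of their lists, the 48 h peak at the 92.6th and the 0 h peak at the 73.6th. Scaled to the deepest pull-down, the fragments were 136 (111 to 164) at 0 h, 280 (248 to 315) and 310 (276 to 347) at 24 h, and 210 (177 to 247) at 48 h. Both 24 h lists were above the other 2 beyond counting error, but 0 h and 48 h have 1 list each, and the other list of either time had no peak. The ratio of pull-down to input at this summit was 2.36 (1.47 to 3.97) in list 2 at 0 h, 3.34 (2.29 to 5.04) in list 2 at 24 h and 4.67 (2.31 to 11.0) in list 2 at 48 h, and these intervals overlap.

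**Figure D2:**
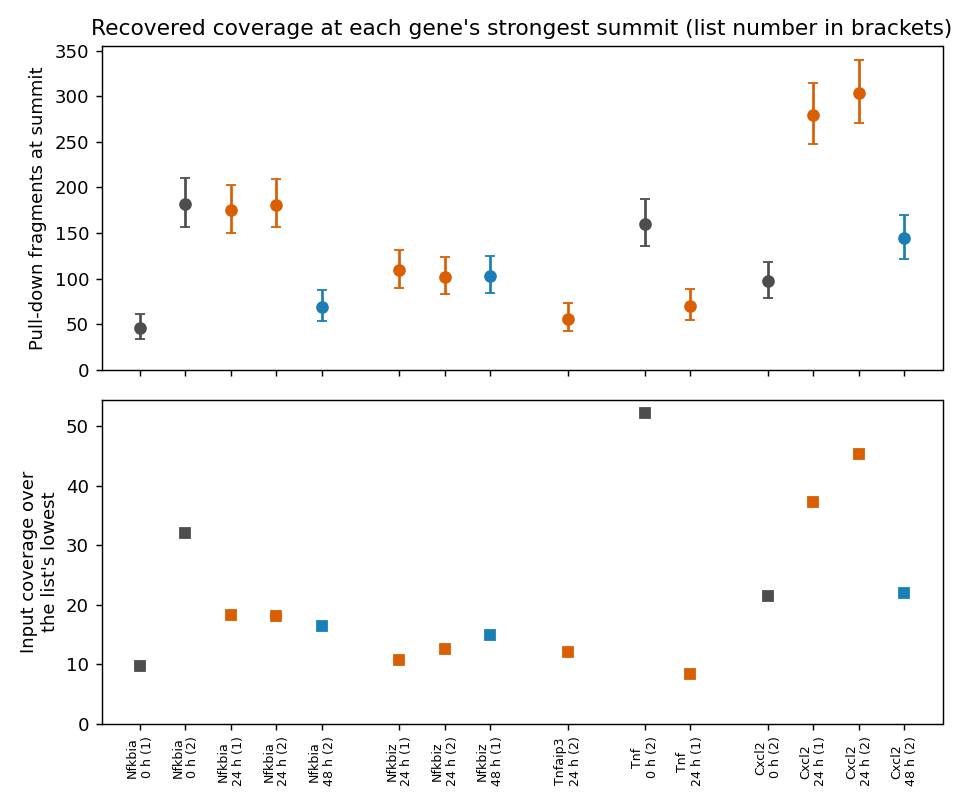
Pull-down fragments at the strongest summit of each gene in each list (upper panel, bars are exact 95% Poisson intervals) and input coverage there as a multiple of the lowest input of the list (lower panel). Grey is 0 h, orange 24 h and blue 48 h. Nfkbia has 46 fragments in list 1 and 182 in list 2 at 0 h, and Tnf in list 2 at 0 h has the highest relative input, 52.2. The Cxcl2 point is the downstream summit in list 2 at 0 h and the upstream summit in its other lists, so these points are not of the same site.

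The balance of the Cxcl2 summits differed between libraries. Of the fragments at both summits, 52.2% (exact 95% interval 45.1 to 59.3) were at the upstream one in list 2 at 0 h. The share was 69.4% (64.9 to 73.7) in list 2 at 24 h and 73.8% (67.1 to 79.9) in list 2 at 48 h. The 0 h interval does not overlap the later ones, and the later ones overlap each other. The input share was 56.8% (39.5 to 72.9) at 0 h, and 58.9% and 64.8% in the later lists. In both later lists the input at the downstream summit was not a whole number, so it need not be a count at that place. The later input shares are therefore not compared with those of the pull-down. The downstream summit had a q above 0.05 in both later lists, with 0.108 in list 2 at 24 h. The pull-down shares compare 3 libraries and not the times, and fragments long enough to reach both summits would be counted at each.

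Nfkbiz had no peak at 0 h, so the same comparison could not be made for it. Its downstream summit at 48 h had a q of 0.136. Of the Nfkbiz fragments at both summits, 52.2% and 53.1% were upstream at 24 h and 58.9% at 48 h, and the intervals overlap. The share was 72.2% (66.3 to 77.7) for Nfkbia in list 2 at 0 h and 58.3% (47.8 to 68.3) for Tnfaip3 in list 2 at 24 h. The input share was 57.1% for Tnfaip3 and 66.0% for Nfkbia. For Nfkbia the input at the downstream summit was not a whole number, so it need not be a count at that place.

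**Figure D3:**
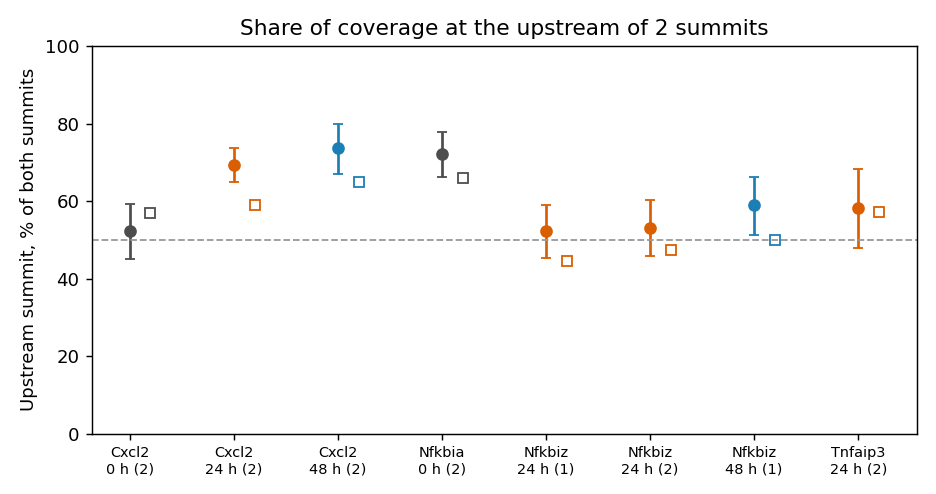
Share of the coverage of both summits that lay at the upstream one, for every peak of the 6 genes with 2 summits. Filled circles are pull-down fragments with exact 95% binomial intervals, open squares the input, and the list number is in brackets. Cxcl2 is at 52.2% in list 2 at 0 h and at 73.8% in list 2 at 48 h. Its input share is 56.8% and 64.8% there, and at 48 h the downstream input was not a whole number. The downstream summits of Cxcl2 in list 2 at 24 h and list 2 at 48 h had a q above 0.05. So had the downstream summit of Nfkbiz in list 1 at 48 h and both summits of Tnfaip3.

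Il1b encodes interleukin-1β, a cytokine made as an inactive precursor. No row of the 6 lists named Il1b as overlapped, closest or downstream gene. A gene with little RNA in these cells and one with RNA that was not enriched both give no peak, and the lists do not tell them apart.

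Most peaks of the lists, of any gene, lay towards the 3′ end of the transcript. Of the 18 peaks of the 5 genes, 11 were centred in a 3′ UTR, which is 61.1% (exact 95% interval 35.7 to 82.7), 5 in a last exon and 2 in another exon. The lists annotate places as the last exon apart from the 3′ UTR, so a last-exon peak may or may not reach it. Over all 4753 peaks, 49.3% were in a 3′ UTR, 17.7% in a last exon and 16.4% in another exon. The 3′ UTR and last exon together held 88.9% of the 18 peaks and 67.0% of all peaks. The 18 peaks are not independent, since they fall into 8 merged regions, of which 4 were found in 2 or more lists and 2 in 4 or more. The interval takes them as independent, so it is too narrow and no comparison is drawn from it. Over all 2808 regions, 36.8% were found in 2 or more lists and 8.44% in 4 or more.

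**Figure D4:**
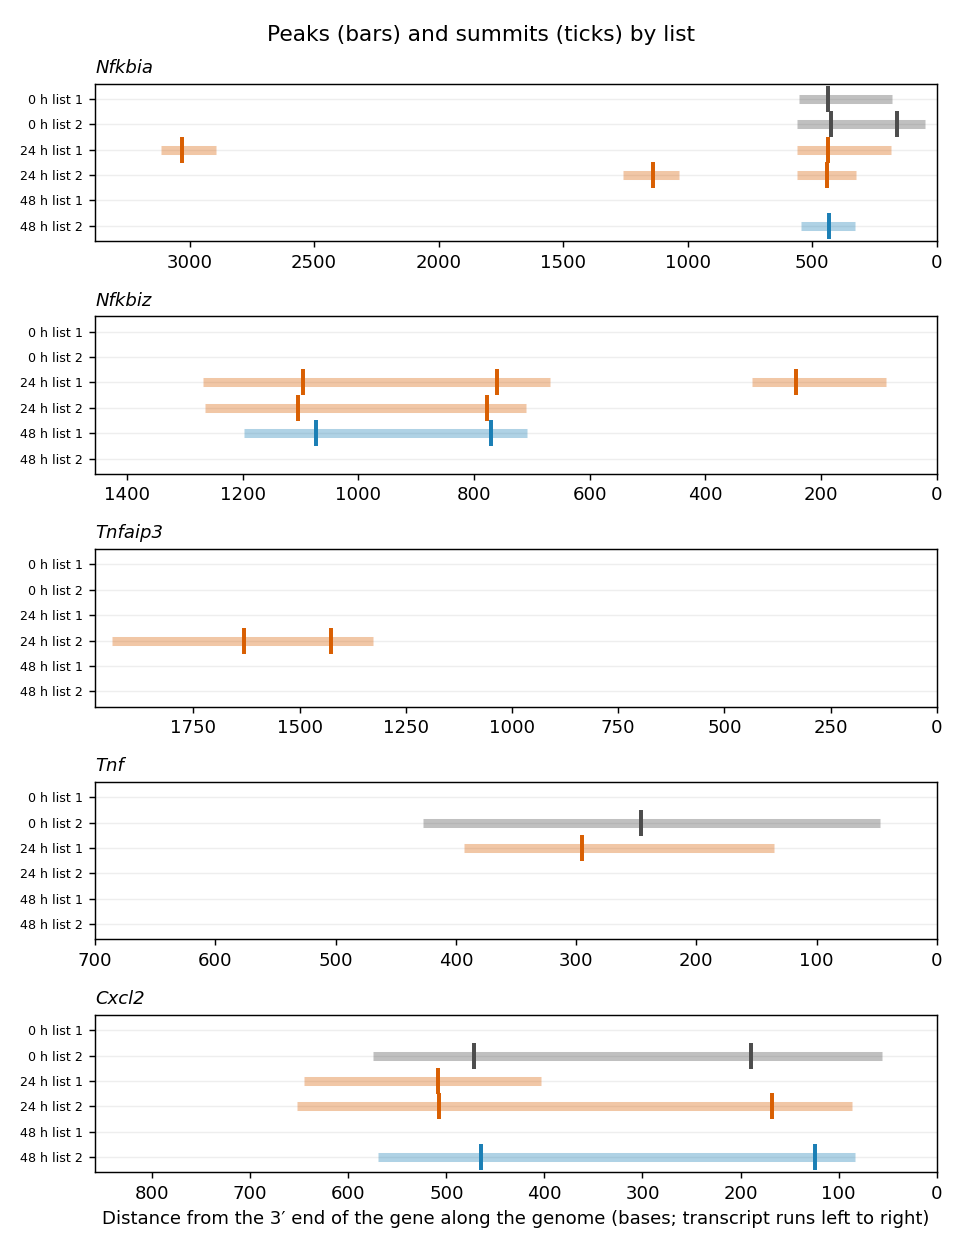
Peaks (bars) and their summits (ticks) of the 5 genes in each list, by distance in bases from the 3′ end of the gene, with the transcript running from left to right; grey is 0 h, orange 24 h and blue 48 h. The Nfkbia summits of 5 lists line up within 17 bases, and the 3 Nfkbiz peaks repeat a pair of summits.

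The peaks were also wide. Their median width was 380 bases, against 260 over all peaks, and 8 of 18 (44.4%) had 2 summits, against 9.61% with 2 or more among all peaks. Width and summit number went together. All 8 peaks of 400 bases or more had 2 summits, as had 52.1% of all peaks of that width, and none of the 10 narrower ones did, against 1.23%. The median percentile of −log10 p within a list was 84.5, and 7 of 18 peaks were in the top 10.0% of their list. A q of 0.05 or less was reached by 14 of 18 peaks (77.8%), and by 43.8% of all peaks.

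The 0 h lists stood apart from each other on these genes. Over 424 regions found in both, the pull-down at the best summit, scaled for depth, was 4.64-fold higher in list 2 than in list 1 for Nfkbia, and no other region had a larger ratio. The input ratio there was 3.28-fold, and 2 regions had a larger one. For comparison, 90% of the regions lay between −0.47 and 0.48 on the log2 scale for the pull-down and between −1.04 and 0.98 for the input, while Nfkbia was at 2.21 and 1.72. Tnf and Cxcl2 had a peak in list 2 and none in list 1.

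Other pathway genes were uneven between the 0 h lists too. Of 127 listed pathway genes other than the 6, 13 had a peak in list 2 only at 0 h, 4 in list 1 only and 7 in both. The 13 included the immediate-early genes Fos, Egr1, Btg2, Klf6 and Ier5, the chemokine Ccl2 and the decay factor Zfp36. The early-response genes did not all go one way, since Jun was in list 1 only and Jund, Egr2 and Bhlhe40 were in both. Over all genes with a peak list 1 held more, with 335 in list 2 only, 451 in list 1 only and 372 in both. Of the 7 other pathway genes with a region in both lists, Ier3 had the 4th largest pull-down ratio, 2.29-fold, and Egr2 the 9th, 1.55-fold. The input ratio there was 2.19-fold for Ier3 and 2.55-fold for Egr2, so the input was higher in list 2 as well. The other 5 pull-down ratios lay nearer to 1, with Ccl9 at 1.28-fold, Hnrnpd at 1.07, Irak2 at 1.06, Bhlhe40 at 0.97 and Jund at 0.88. Their input ratios ran from 0.64 (Jund) to 1.36 (Ccl9). What made list 2 differ was not tested, and the results at 0 h for Tnf and Cxcl2 rest on it alone.

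At 24 h the lists were alike for the genes that both held. List 2 over list 1, the pull-down ratio was 1.06 for Nfkbia, 1.11 for Cxcl2 and 0.96 for Nfkbiz, and the input ratio was 0.99, 1.22 and 1.17. Over the 194 shared regions, 90% lay between −0.52 and 0.34 on the log2 scale for the pull-down, and the 3 genes were at 0.08, 0.15 and −0.07. At 48 h no gene of the 6 could be compared, as list 1 held Nfkbiz and list 2 held Nfkbia and Cxcl2.

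Lists of the wider NF-κB pathway were set beside the 6 genes. Of 133 genes in 7 lists, 41 had a peak in some list (30.8%), and 36 of 127 without the 6 genes (28.3%), against 8.14% of all protein-coding genes. Many of these genes are expressed in macrophages, and expression was not matched, so no enrichment is read from this. By time, the 92 pairs of the 127 other genes were 31 at 0 h, 33 at 24 h and 28 at 48 h, which is 33.7%, 35.9% and 30.4%. Over the pairs of all genes with a peak, the shares were 43.6%, 28.5% and 27.9%. The difference was not tested.

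Among NF-κB subunits and inhibitors, 5 of 11 had a peak. Besides Nfkbia and Nfkbiz these were the subunits Rel and Rela and the nuclear IκB protein Bcl3, each in a single 24 h list. Their authors' −log10 p was 3.40 for Rel, 3.22 for Rela and 5.95 for Bcl3. Of these 5 genes, 5 had a peak in some 24 h list, 1 at 0 h and 2 at 48 h, and 2 of the 5 are Nfkbia and Nfkbiz, chosen with their lists known. Over all genes with a peak, 64.9% had one in some 0 h list, 45.6% at 24 h and 44.7% at 48 h. The difference was not tested.

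Of 24 kinases and adaptors, 5 had a peak. Irak2, a kinase-like adaptor of Toll-like receptors, had one in both 0 h and both 48 h lists and in neither 24 h list. Tab2, which links ubiquitin chains to the kinase TAK1, had one in list 1 at 24 h and in both 48 h lists. Traf2 and Irak4 were in 1 list each and Tbk1 in 2. Of 13 receptors only Tnfrsf1b, the second TNF receptor, had a peak, in list 2 at 0 h and in both 24 h lists.

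Among 17 negative feedback genes, 6 had a peak, including Nfkbia and Tnfaip3. Ier3, an immediate-early gene, was found in 5 lists, and Otud7b, Tax1bp1 and Cyld, which act on ubiquitin chains or with A20, in 1 or 2 each. Of 13 factors that control the decay of inflammatory mRNAs, 7 had a peak. These were Zfp36, Zfp36l1 and Zfp36l2, which bind AU-rich elements, Zc3h12c of the Regnase family, the Roquin genes Rc3h1 and Rc3h2, and Hnrnpd, which was found in 5 lists.

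Of 34 cytokine and chemokine genes, a set that includes the prostaglandin enzyme gene Ptgs2, 8 had a peak. Ccl9, a macrophage chemokine, was found in the same 5 lists as Nfkbia, with a strongest −log10 p of 37.3, above the 23.7 of Cxcl2. Inhba, a subunit of activin, had a peak in every one of the 4 later lists and none at 0 h. Cxcl16 was in 4 lists, Ptgs2 in 2, and Csf1 and Ccl2 in list 2 at 0 h only. Among 22 early-response transcription factors and related genes 10 had a peak, of which Jund was in all 6 lists and Jun in 5.

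**Figure D5:**
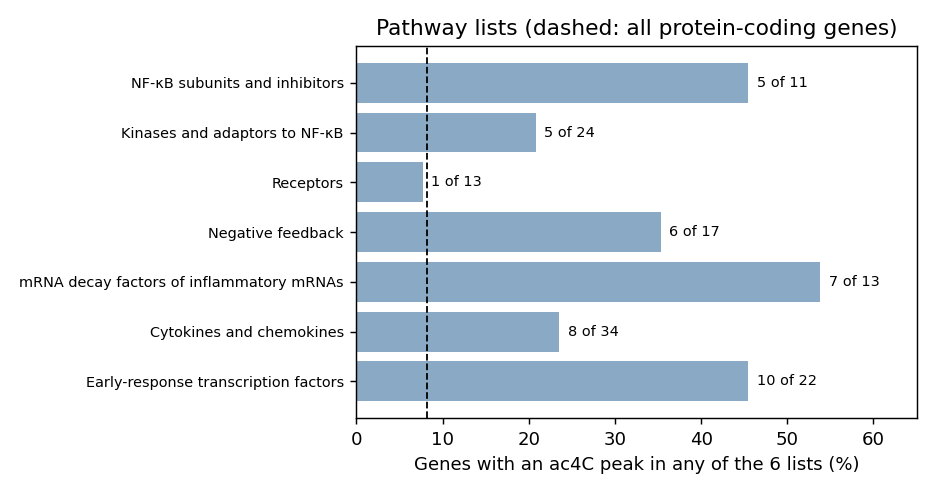
Percentage of the genes of each of 7 pathway lists that had an ac4C peak in any of the 6 lists, with the counts beside the bars; Nfkbia is in 2 of the lists. The dashed line is the 8.14% of all protein-coding genes, and 6 of the 7 bars lie above it, the receptors at 1 of 13 below it.

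Likeness to other genes was taken as a peak in the same of the 6 lists, and up to 5 genes with the highest mean percentile are named for each pattern. The pattern of Nfkbia was shared by 19 other genes, among them Spp1, Nus1, Plk2, Id2 and Zfand5, and that of Cxcl2 by 4, Lrp1b, Zbtb18, Rab9 and Gpbp1. The pattern of Nfkbiz was shared by 3, Slfn5, Smc6 and Ppfia1. The pattern of Tnf was shared by 18, led by Kdm5a, Ccdc115, Fos, Rars and Fip1l1. That of Tnfaip3, a single list, was shared by 123, led by Fcer1g, Plau, Acod1, Wbp2 and Mmp12. Among the genes of its own pattern, by mean percentile, Nfkbiz stood at place 1, Cxcl2 at 1, Tnf at 2, Nfkbia at 13 and Tnfaip3 at 84.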

How the data were processed

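Peritoneal macrophages were profiled by ac4C RIP-seq and total RNA sequencing. The authors used MACS2 2.1.0, BWA 0.7.12 and the build GRCm39 per the submitters' processing notes; what each was set to is not stated. Spliced fragments can be missing, since BWA makes no alignment over a splice junction. Each deposited list has a row for each summit and overlapped gene, with the fold enrichment (a ratio over the peak caller's background) and p and q as −log10, per the file headers. The control library behind each list is not named. Total RNA libraries and the sequence under the summits were not analysed here. Starts and ends are printed as deposited, and a start may be off by 1 base.

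The 6 genes and all gene lists were chosen with earlier results of these data known. A peak is 1 region of chromosome, start and end, and its strength that of its best summit. Place is the authors' annotation of the peak centre. Peaks sharing 1 base or more, from any of the lists, formed 1 merged region. Pull-down fragments k and input coverage C were found for each summit from the authors' fold, (k × factor + 1)/(C + 1), and the Poisson upper tail, with 1 factor a list. Within 0.005 of −log10 p, 100% of the summits matched, with the factor fitted to these same summits. The recovery was tested on data simulated with the same formula, which cannot show that the formula holds for the authors' data. That factor, the depth of the input relative to the pull-down, lay between 0.259 and 0.468. Ratios between lists were scaled by the lowest input coverage of each list, from 0.364 to 0.817, taken as its background. Intervals (95%) are exact Poisson or binomial, are given for ratios only where the input was a whole number within 0.01, and cover counting error only, since reads carry no molecular identifiers. Group tests across lists were not made. Named were all 6 genes and, for each pattern and pathway list, the genes with the highest mean percentile or all of those with a peak. Gene types came by symbol from a RefSeq table of GRCm38.p6, which held 85.1% of the 2096 symbols as protein-coding. Alternatives were cuts on q and fold, equal list length, matched input, other gene and overlap rules, and each list left out. Python 3.11.15, pandas 2.3.3, NumPy 2.4.6, SciPy 1.17.1 and matplotlib 3.10.9 were used.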

Additional observations from a re-analysis of the deposited data

How the results depend on the processing

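Of 97 recomputed values of 8 results, 81 stayed within 1.5 times the reported count or, for the share of peaks in a 3′ UTR, within its interval. That interval is wide, so the share could hardly leave it. Asking for a peak centre in the gene body changed none of the 8 results. At a fold of 4 or more, the gene and list pairs fell to 0 at 0 h, 3 at 24 h and 1 at 48 h, with 3 genes holding a peak, 4 merged regions and 1 region in 2 or more lists. At a q of 1e-05 or less, 1 pair stayed at 0 h, with 3 genes and 3 merged regions. The pathway genes with a peak, 41 in all, were 26 at a q of 0.05, 11 at a q of 1e-05 and 13 at a fold of 4. The 24 h count stayed the highest of the 3 times in each of these, and with matched input (3, 7 and 3 pairs) and equal list length (3, 8 and 3). These counts filter the same peaks of genes chosen with their lists known, so they lend that order no support.

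Leaving out 1 list leaves 6 possible pairs at its time in place of 12, so these counts fall by construction: 1 to 3 pairs at 0 h (1 without list 2), 4 at 24 h without either list, and 1 to 2 at 48 h. Genes with a peak ranged from 4 to 5, merged regions from 6 to 8, those in 2 or more lists from 3 to 4, the 3′ UTR share from 58.3% to 69.2%, and pathway genes from 38 to 41. The merging rule changed no count beyond 8 to 9 regions. Depth limits the ratios of pull-down to input, as the input coverage recovered at these summits was 1.31 to 39.0, not always a whole number. A gene without a peak may have one below the threshold.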
